A study of Mus musculus with 24 samples.

Results

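The genes described are 10 of the hypoxia-inducible factor (HIF) pathway and its targets, Hif1a, Epas1, Egln1, Egln3, Vegfa, Bnip3, Adm, Slc2a1, Ankrd37 and Epo. They were taken by name from the gene identifiers of a kidney RNA-seq table, and all 10 were found among its 55416 gene rows. The samples were mouse kidney tissue in 4 groups of 6 biological replicates. Polg+/+ mice carry normal copies of Polg, the catalytic subunit of the mitochondrial DNA polymerase, and PolgD257A littermates carry the proofreading-deficient D257A form, with which mitochondrial DNA gathers mutations. Each genotype was studied after sham surgery (Sham) and after ischemia followed by reperfusion, which is labelled B-IRI, and the labels name no drug or other agent. The labels write the mutant genotype as PolgD257A without giving the number of mutant copies. Sex, age, strain and the time between surgery and kidney collection are not stated in any source used here. The comparison of genotypes addresses how mitochondrial DNA mutations contribute to injury after ischemia and reperfusion.

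HIFs are transcription factors made of an oxygen-regulated alpha subunit, encoded by Hif1a, Epas1 (HIF-2 alpha) or Hif3a, and a stable beta subunit, encoded by Arnt or Arnt2. In normal oxygen the prolyl hydroxylases, among them PHD2 (Egln1) and PHD3 (Egln3), mark the alpha subunit for recognition by the von Hippel-Lindau protein and for degradation, so HIF activity is set largely at the protein level and an mRNA level does not measure it. When oxygen falls, HIF binds a short hypoxia response element near its target genes, which include the growth factor Vegfa, the vasodilator peptide gene Adm, the glucose transporter gene Slc2a1 (GLUT1), the mitophagy receptor gene Bnip3, Ankrd37 and, in interstitial cells of the kidney, Epo. In the kidney, HIF-1 alpha is best known from tubular epithelium and HIF-2 alpha from endothelial and interstitial cells.

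Depth ran from 16689284 to 26341004 gene-assigned reads per library and was lowest in the sham Polg+/+ group, at 16689284 to 19737994. In sham kidneys Polg itself averaged 1060 ± 24.3 normalized counts in Polg+/+ and 1046 ± 52.8 in PolgD257A, and after B-IRI 1078 ± 42.2 and 1137 ± 51.5 (SD, n = 6). Since D257A is a codon change these levels do not check the genotype labels. Havcr1, the kidney injury marker KIM-1, rose in B-IRI against sham by log2 6.46 ± 0.24 in Polg+/+ and by 7.54 ± 0.24 in PolgD257A (SE). Summed over the proximal tubule markers, the kidney's main epithelium, counts were 389900 to 548900 in the sham libraries. None of the 12 markers was at 0 in every library of a group. In sham PolgD257A replicate 3 the red blood cell markers summed to 16080 normalized counts, against a group median of 4743. The kidneys are bulk tissue, so fewer cells of a type and less RNA per cell cannot be told apart in any value below.

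A change is given as the difference in mean log2(normalized count + 1) with its standard error, and called higher or lower where limma's adjusted p was under 0.05 over the 17430 genes tested. This scale understates changes of genes with few counts. Of the 10 genes, 9 passed the filter on low values, and Epo did not. In Polg+/+ kidneys 2 of the 9 were higher after B-IRI (22.2%, beside 21.4% of all genes tested) and 3 were lower (33.3%, beside 19.8%). In PolgD257A kidneys 3 were higher (33.3%, beside 30.2%) and 5 were lower (55.6%, beside 30.3%). Between genotypes in sham kidneys limma called 0 of the 9 in either direction, where 0.0861% of all genes were higher and 0.0402% lower in PolgD257A. That count was 0 also at an unadjusted p under 0.05, and 0 by edgeR and by DESeq2. After B-IRI, 3 were higher in PolgD257A (33.3%, beside 14.3%) and 3 were lower (33.3%, beside 15.2%). The surgery effect differed between genotypes (the interaction of surgery and genotype) for 4 of the 9, 2 toward higher values in PolgD257A (22.2%, beside 6.87%) and 2 toward lower (22.2%, beside 9.08%). The count of 4 was 2 (Vegfa and Adm) with no filter on low values and without B-IRI PolgD257A replicate 1 or either of B-IRI Polg+/+ replicates 1 and 5. The median log2 change over the 9 was -0.10 after B-IRI in Polg+/+ and -0.37 in PolgD257A, where the medians over all genes were -0.008 and -0.001. The comparison of genotypes after B-IRI and the surgery comparison in PolgD257A share the B-IRI PolgD257A libraries, so their values are not independent.

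**Figure D1:**
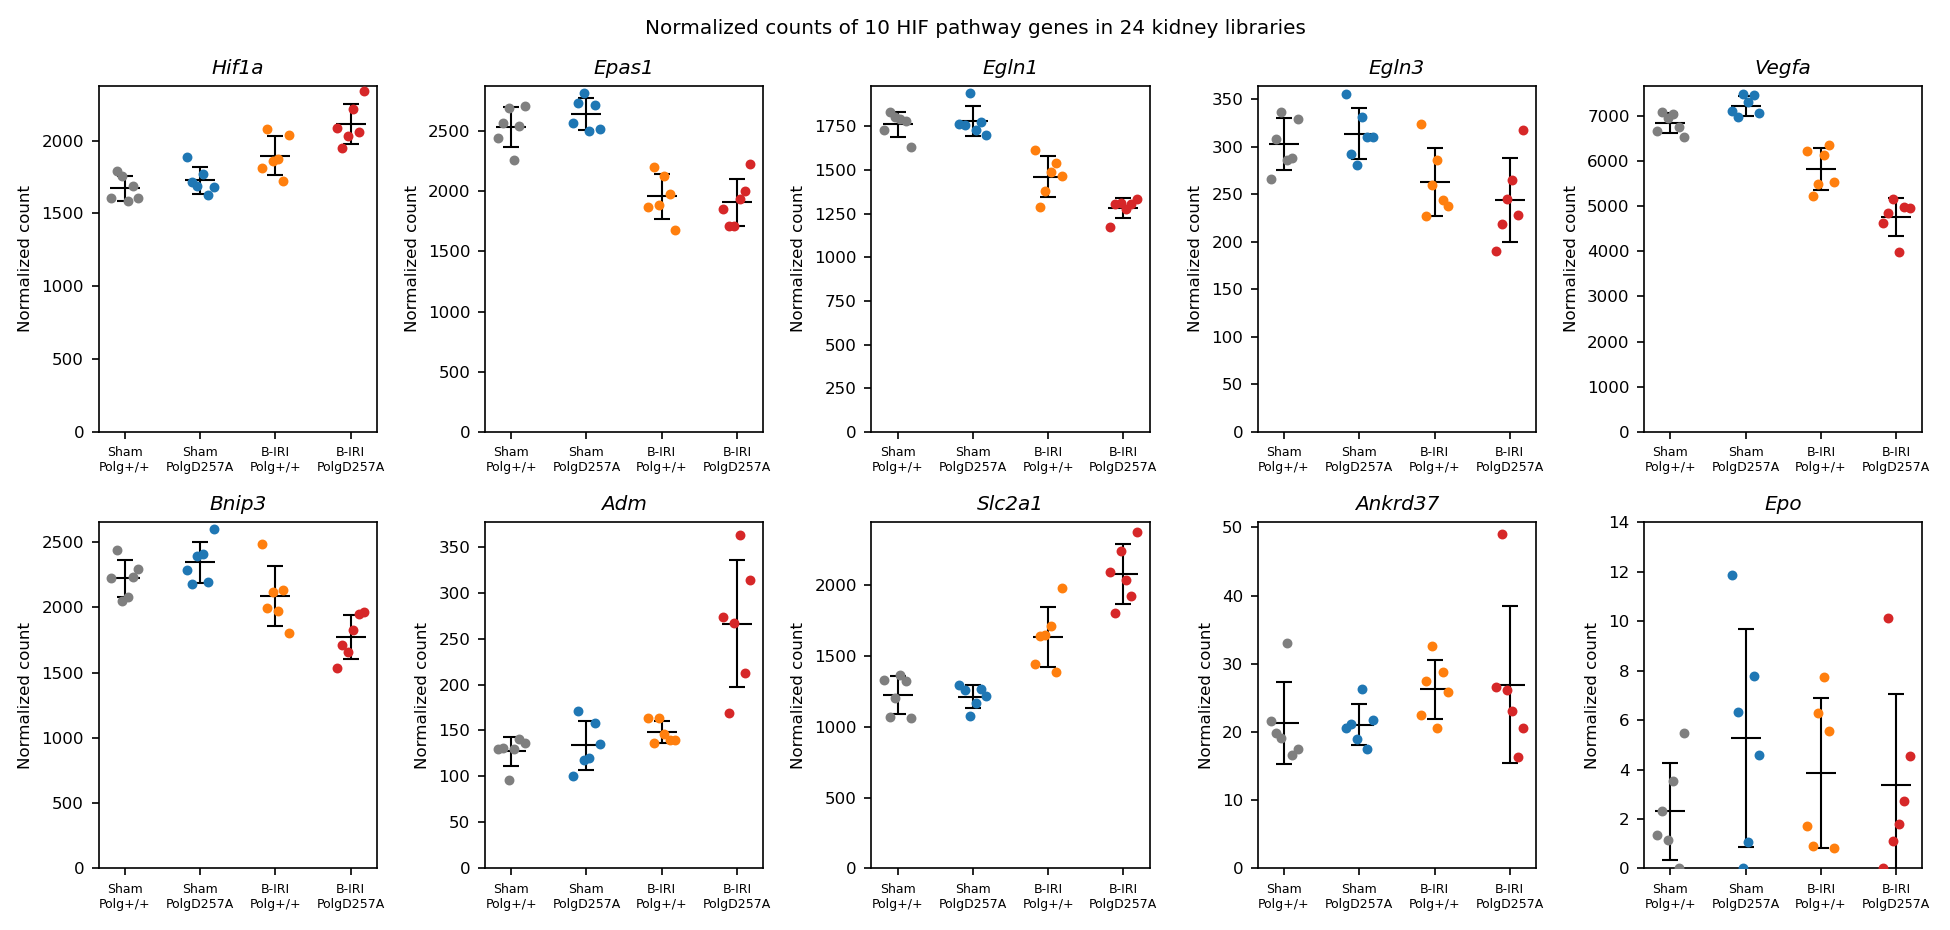
Normalized counts (vertical axes, from 0) of the 10 genes in each of the 24 libraries, by group, with black bars for the mean and SD of 6 libraries. Vegfa and Epas1 lay lower in every B-IRI library than in every sham library of the same genotype, Slc2a1 lay higher in every one, and Adm was highest in B-IRI PolgD257A.

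The promoters of the 4 genes whose surgery effect differed between genotypes are shown here, to display what the windows ahead of the genes hold of the hypoxia response core. The letters searched were ACGTG and GCGTG on both strands, so CACGT and CACGC are matches on the other strand, and the palindrome CACGTG counts as 2 matches of ACGTG. The windows are the 250 bases before the start that RefSeq annotates (GRCm38.p6), printed 5′ to 3′ on the gene's strand, with matches in capitals. The stretches of Bnip3 and Slc2a1 stop where GENCODE M21 places the first exon, except that the last match of Slc2a1 reaches 3 bases into it. They lie at chr17:46032378-46032627 on the minus strand for Vegfa, chr7:138909520-138909756 on the minus strand for Bnip3, chr7:110627407-110627656 on the plus strand for Adm, and chr4:119108495-119108713 on the plus strand for Slc2a1.
Vegfa: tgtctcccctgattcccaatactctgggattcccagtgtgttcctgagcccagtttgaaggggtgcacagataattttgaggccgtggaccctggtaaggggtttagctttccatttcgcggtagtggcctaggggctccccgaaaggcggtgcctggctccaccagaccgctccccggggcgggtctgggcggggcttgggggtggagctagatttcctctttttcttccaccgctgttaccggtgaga
Bnip3: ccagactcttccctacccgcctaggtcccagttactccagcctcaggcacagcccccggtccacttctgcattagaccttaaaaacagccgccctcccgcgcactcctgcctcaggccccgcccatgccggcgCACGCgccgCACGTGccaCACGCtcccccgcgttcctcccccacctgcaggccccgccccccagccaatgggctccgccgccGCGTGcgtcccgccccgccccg
Adm: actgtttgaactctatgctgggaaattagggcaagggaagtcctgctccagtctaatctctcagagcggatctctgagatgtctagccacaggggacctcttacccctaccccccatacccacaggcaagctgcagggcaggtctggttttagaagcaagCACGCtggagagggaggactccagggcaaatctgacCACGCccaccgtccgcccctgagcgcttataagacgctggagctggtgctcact
Slc2a1: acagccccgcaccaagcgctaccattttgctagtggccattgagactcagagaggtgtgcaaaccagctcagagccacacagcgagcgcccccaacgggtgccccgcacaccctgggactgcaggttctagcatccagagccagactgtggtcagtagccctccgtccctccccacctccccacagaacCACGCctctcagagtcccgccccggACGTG

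The Bnip3 stretch held 2 matches of ACGTG, which are the strands of a single CACGTG, and 3 of GCGTG. The Slc2a1 stretch held 1 of each. Adm had 2 matches of GCGTG and 0 of ACGTG, and the Vegfa window had 0 of either. Vegfa has a second annotated start inside the gene, whose 250-base window (chr17:46025164-46025413) held 1 match of each. Among the 10 genes, 9 had at least 1 window, with 10 windows in all, and each of these 9 had a match of either motif in at least 1 of its windows, 7 of them of ACGTG. Counted by window, 9 of the 10 held either motif and 7 held ACGTG. Of all 32851 RefSeq windows of the same length, 16.57% held ACGTG, 28.16% held GCGTG and 38.6% held either. The 10 windows were 50.8 to 86.0% GC, and these shares were not matched for GC content. The 2 genes that rose more in PolgD257A (Adm, Slc2a1) and 1 of the 2 that fell more (Bnip3) had a match in the window shown. A match describes the letters only, and the absence of one says nothing about binding.

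The transcription factor subunits moved in opposite directions after B-IRI. Hif1a, which encodes HIF-1 alpha (chromosome 12, 73901375 to 73947530, GRCm38, plus strand), ran from 1584 to 1790 normalized counts in sham Polg+/+ (median 1648) and from 1627 to 1886 in sham PolgD257A (median 1700). After B-IRI it ran from 1724 to 2078 in Polg+/+ (median 1866) and from 1951 to 2337 in PolgD257A (median 2071). Of the B-IRI Polg+/+ libraries 5 lay above every sham Polg+/+ library, and in PolgD257A the groups did not overlap. The rise was log2 0.18 ± 0.05 in Polg+/+ (adjusted p = 0.0067, 1.13-fold) and 0.29 ± 0.05 in PolgD257A (adjusted p = 2.7e-05, 1.22-fold). After B-IRI, Hif1a was higher in PolgD257A than in Polg+/+ by 0.16 ± 0.05 (adjusted p = 0.024), with 3 of 6 libraries above every B-IRI Polg+/+ library. That call was lost when only these 12 libraries were fitted (adjusted p = 0.056) and without any of B-IRI PolgD257A replicates 4 and 6 and B-IRI Polg+/+ replicates 1 and 5 (0.13 to 0.14, adjusted p = 0.059 to 0.075). The surgery effects of the genotypes differed by 0.11 ± 0.07, which did not pass (adjusted p = 0.34, 95% interval -0.04 to 0.26). Exons of Gm15283 on the other strand and Gm49321 on the same strand overlap those of Hif1a, and no source used here says how reads there were shared out.

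Epas1, which encodes HIF-2 alpha (chromosome 17, 86753700 to 86833410, plus strand), was lower after B-IRI. Its counts ran from 2257 to 2709 in sham Polg+/+ (median 2552) and from 1679 to 2202 in B-IRI Polg+/+ (median 1930). In PolgD257A they ran from 2501 to 2818 in sham (median 2642) and from 1712 to 2225 after B-IRI (median 1893). In neither genotype did sham and B-IRI libraries overlap. The fall was log2 -0.38 ± 0.07 in Polg+/+ (adjusted p = 5e-05, 1.30-fold lower) and -0.48 ± 0.07 in PolgD257A (adjusted p = 6.2e-07, 1.39-fold lower). The genotypes did not differ beyond their spread after B-IRI (-0.04 ± 0.07, adjusted p = 0.72), and the interval of the difference in surgery effect was -0.29 to 0.09.

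Set against each other per kb of exon, the alpha subunit mRNAs came closer after B-IRI. Exon lengths here and below are from GENCODE M21, and since the deposited gene identifiers carry other versions, the exons counted may differ. The ratio of Hif1a to Epas1 was 0.627 ± 0.037 in sham Polg+/+ and 0.621 ± 0.054 in sham PolgD257A, and 0.927 ± 0.119 and 1.055 ± 0.058 in the B-IRI groups (SD, n = 6). The lowest B-IRI ratio, 0.827, lay above the highest sham ratio, 0.696. This ratio was not tested, since it combines 2 genes already tested.

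Both prolyl hydroxylase genes among the 10 fell after B-IRI in PolgD257A, and Egln1 fell in Polg+/+ as well. Egln2, of the same family and in the lists below, was not called after B-IRI in either genotype. It averaged 1861 ± 36.2 normalized counts in sham Polg+/+ and 1894 ± 52.4 after B-IRI. In PolgD257A it averaged 1915 ± 79.1 and 1861 ± 121 (SD, n = 6). Egln1, the main oxygen sensor of the family (chromosome 8, 124908587 to 124949324, minus strand), ran from 1633 to 1834 normalized counts in sham Polg+/+ (median 1786) and from 1285 to 1616 after B-IRI (median 1477). In PolgD257A it ran from 1698 to 1942 in sham (median 1760) and from 1172 to 1333 after B-IRI (median 1304). Every B-IRI library lay below every sham library of its genotype, and 2 of the B-IRI PolgD257A libraries lay below every B-IRI Polg+/+ library. Egln1 fell by 0.27 ± 0.05 on the log2 scale in Polg+/+ (adjusted p = 8.3e-05) and by 0.47 ± 0.05 in PolgD257A (adjusted p = 6.4e-09). After B-IRI it was lower in PolgD257A by log2 -0.18 ± 0.05 (adjusted p = 0.0056). The difference in surgery effect, -0.20 ± 0.07, missed the threshold (adjusted p = 0.053), and passed it by edgeR (adjusted p = 0.042), by DESeq2 (adjusted p = 0.031), with a stricter filter of 50 normalized counts (adjusted p = 0.042) and without either B-IRI PolgD257A replicate 6, B-IRI Polg+/+ replicate 3, B-IRI Polg+/+ replicate 2, sham PolgD257A replicate 6 or sham Polg+/+ replicate 2 (adjusted p = 0.015 to 0.05). Sham PolgD257A replicate 3 (1942) and B-IRI PolgD257A replicate 1 (1172) stood apart from the other libraries of their groups.

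Egln3, the hydroxylase whose own mRNA is a classical hypoxia target (chromosome 12, 54178981 to 54203860, minus strand), was scarcer and more variable. It ran from 266.3 to 336.9 normalized counts in sham Polg+/+ (median 298.6) and from 227.3 to 323.8 after B-IRI (median 251.6). In PolgD257A it ran from 280.6 to 355.6 (median 310.2) in sham and from 189.9 to 318.0 (median 236.2) after B-IRI. The groups overlapped in both genotypes, with 5 of 6 B-IRI PolgD257A libraries below every sham one. It fell by 0.37 ± 0.10 in PolgD257A (adjusted p = 0.0022), while the value in Polg+/+ was -0.21 ± 0.10 (adjusted p = 0.099). That value passed without B-IRI Polg+/+ replicate 1 (-0.27, adjusted p = 0.03). The genotypes' surgery effects were not shown to differ (-0.17 ± 0.14, adjusted p = 0.47, interval -0.46 to 0.13).

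**Figure D2:**
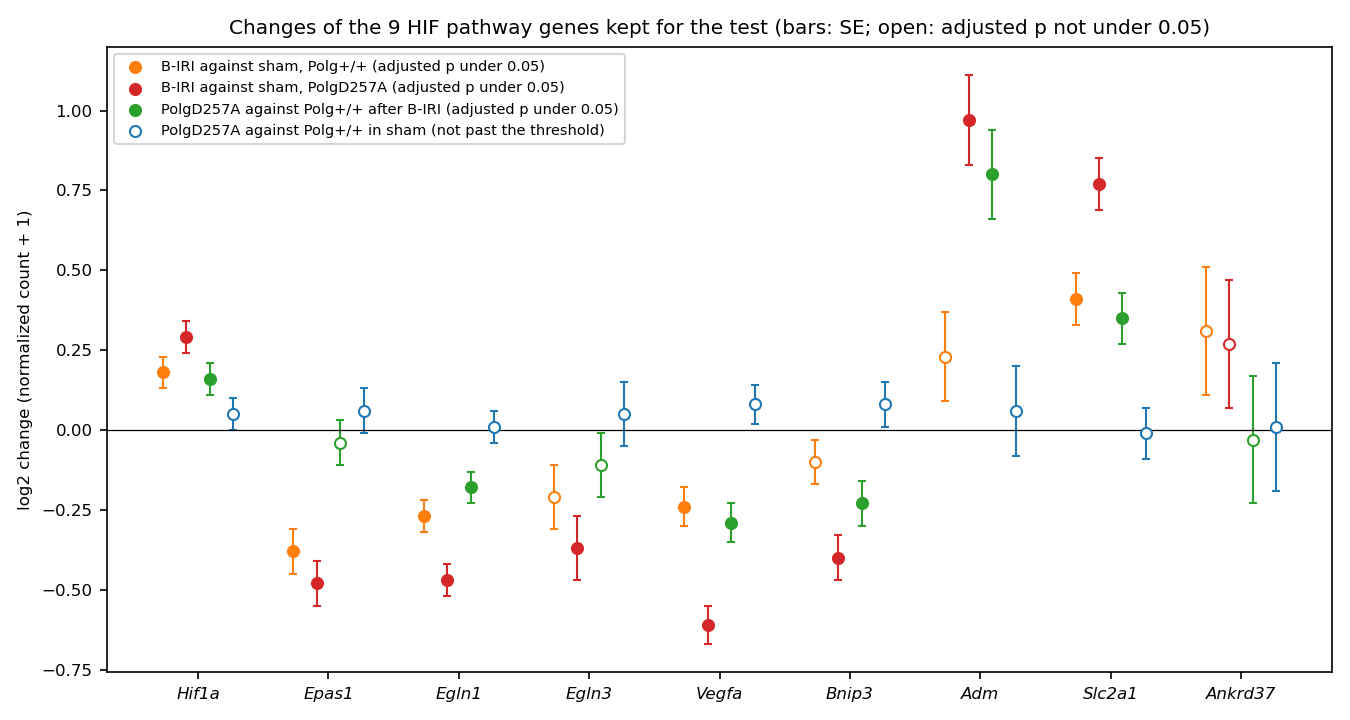
Log2 changes (vertical axis, log2 of normalized count + 1) with SE bars for the 9 genes tested, in 4 comparisons. Filled points passed an adjusted p under 0.05, and those of Adm and Slc2a1 lay highest while the Vegfa change in PolgD257A, -0.61, lay lowest.

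The secreted products of the pathway diverged. Vegfa, the endothelial growth factor made in kidney by podocytes and tubules (chromosome 17, 46016993 to 46032369, minus strand), ran from 6524 to 7095 normalized counts in sham Polg+/+ (median 6859) and from 6965 to 7487 in sham PolgD257A (median 7203). After B-IRI it ran from 5216 to 6363 in Polg+/+ (median 5842) and from 3976 to 5156 in PolgD257A (median 4906). The B-IRI groups overlapped neither with sham nor with each other. Vegfa fell by 0.24 ± 0.06 in Polg+/+ (adjusted p = 0.0014, 1.18-fold lower) and by 0.61 ± 0.06 in PolgD257A (adjusted p = 6.1e-10, 1.52-fold lower). After B-IRI it was lower in PolgD257A by log2 -0.29 ± 0.06 (adjusted p = 0.00027). The surgery effects differed by -0.37 ± 0.08 (adjusted p = 0.0024), and this passed under all 34 alternatives run, at adjusted p of 0.00011 to 0.013. In sham kidneys the genotype difference was 0.08 ± 0.06 (adjusted p = 0.83).

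Adm, the gene of the vasodilator adrenomedullin (chromosome 7, 110627661 to 110629820, plus strand), had the largest rise among the 9 in PolgD257A. Its counts ran from 95.78 to 140.8 in sham Polg+/+ (median 130.4), where replicate 3 stood apart at the low end, and from 100.5 to 171.2 in sham PolgD257A (median 127.5). After B-IRI they ran from 136.6 to 163.8 in Polg+/+ (median 143.1) and from 169.1 to 363.0 in PolgD257A (median 270.4). All 6 B-IRI PolgD257A libraries lay above all 6 B-IRI Polg+/+ libraries, and 5 of them above every sham PolgD257A library. The rise in PolgD257A was log2 0.97 ± 0.14 (adjusted p = 2.1e-06, 1.96-fold), while the value in Polg+/+ was 0.23 ± 0.14 (adjusted p = 0.22). After B-IRI, Adm was 1.74-fold higher in PolgD257A (log2 0.80 ± 0.14, adjusted p = 0.00015). The surgery effects differed by 0.74 ± 0.20 (adjusted p = 0.014), which passed under all 34 alternatives, at adjusted p of 0.0019 to 0.03. Of the 10 genes only Adm was in the authors' deposited table of 1401 genes, read from its name and signs as PolgD257A against Polg+/+ after B-IRI. The table gives Adm a log2 fold change of 0.80 with a standard error of 0.15 and an s-value of 7e-09. It holds selected genes, so absence from it does not show that a gene did not differ. Adm and Bnip3 lie on chromosome 7, as Polg does, at 31.2 and 59.4 Mb from it. In sham kidneys limma called neither different between genotypes. The sham difference was 0.06 ± 0.14 for Adm (adjusted p = 0.96, interval -0.24 to 0.36). For Bnip3 it was 0.08 ± 0.07 (adjusted p = 0.86, interval -0.06 to 0.22). Whether the location of either gene plays a part in its genotype difference after B-IRI was not tested.

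Per kb of exon, Vegfa mRNA stood at 20.7 ± 3.47 times the level of Adm in sham Polg+/+ and 21.1 ± 4.19 times in sham PolgD257A. After B-IRI this ratio was 14.9 ± 1.53 in Polg+/+ and 7.25 ± 2.34 in PolgD257A (SD, n = 6).

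Slc2a1, which encodes the glucose transporter GLUT1 (chromosome 4, 119108711 to 119137983, plus strand), rose after B-IRI in both genotypes. It ran from 1062 to 1364 normalized counts in sham Polg+/+ (median 1263) and from 1389 to 1979 after B-IRI (median 1644). In PolgD257A it ran from 1073 to 1294 in sham (median 1238) and from 1801 to 2378 after B-IRI (median 2066). Sham and B-IRI libraries did not overlap, and 4 of the 6 B-IRI PolgD257A libraries lay above every B-IRI Polg+/+ library. The rise was log2 0.41 ± 0.08 in Polg+/+ (adjusted p = 0.00021, 1.33-fold) and 0.77 ± 0.08 in PolgD257A (adjusted p = 6.4e-09, 1.71-fold). After B-IRI it was 1.27-fold higher in PolgD257A (log2 0.35 ± 0.08, adjusted p = 0.0018). The surgery effects differed by 0.36 ± 0.11 (adjusted p = 0.033). That call was lost with no filter on low values (adjusted p = 0.062) and without any of B-IRI PolgD257A replicates 1 and 6, B-IRI Polg+/+ replicates 1 and 5, sham PolgD257A replicates 3 and 4 and sham Polg+/+ replicates 1, 4 and 5 (0.32 to 0.36). Gm12868 overlaps its exons on the other strand, and without known strand handling its reads cannot be told apart.

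Bnip3, the mitophagy receptor of the outer mitochondrial membrane (chromosome 7, 138890836 to 138909519, minus strand), fell in PolgD257A. Its counts ran from 2052 to 2443 in sham Polg+/+ (median 2232) and from 1806 to 2486 after B-IRI (median 2056). In PolgD257A they ran from 2181 to 2598 in sham (median 2341) and from 1538 to 1968 after B-IRI (median 1769). The surgery groups overlapped in Polg+/+ and did not in PolgD257A. The fall in PolgD257A was log2 -0.40 ± 0.07 (adjusted p = 1.2e-05, 1.32-fold lower), and the value in Polg+/+ was -0.10 ± 0.07 (adjusted p = 0.27). After B-IRI it was lower in PolgD257A by -0.23 ± 0.07 (adjusted p = 0.012). The surgery effects differed by -0.31 ± 0.10 (adjusted p = 0.03), a call lost with no filter (adjusted p = 0.058), with quantile normalization (-0.25, adjusted p = 0.065), with library weights (-0.25, adjusted p = 0.055) and without any of B-IRI PolgD257A replicate 1, B-IRI Polg+/+ replicates 1 and 5, sham PolgD257A replicate 6 and sham Polg+/+ replicate 3 (-0.30 to -0.26). Its exons overlap Gm45507 on the other strand.

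Ankrd37, an ankyrin repeat gene known as a hypoxia target (chromosome 8, 45996902 to 46005707, minus strand), had few reads, 14 to 58 per library. It ran from 16.56 to 32.99 normalized counts in sham Polg+/+ (median 19.5) and from 17.54 to 26.37 in sham PolgD257A (median 20.8). After B-IRI it ran from 20.64 to 32.56 in Polg+/+ (median 26.7) and from 16.27 to 49.03 in PolgD257A (median 24.6). All 4 groups overlapped. The changes after B-IRI, 0.31 ± 0.20 in Polg+/+ (adjusted p = 0.23, interval -0.10 to 0.73) and 0.27 ± 0.20 in PolgD257A (adjusted p = 0.26, interval -0.15 to 0.69), did not pass. Lrp2bp and Ufsp2 overlap its exons on the other strand.

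Epo, the gene of the hormone erythropoietin (chromosome 5, 137483020 to 137533242, minus strand), had 0 to 12 reads per library and fell under the filter. It was at 0 reads in 1 library each of sham Polg+/+, sham PolgD257A and B-IRI PolgD257A, where a count of 0 allows up to 3 reads by counting error alone. In Polg+/+ its mean was 2.31 ± 1.96 normalized counts after sham surgery and 3.85 ± 3.04 after B-IRI, and in PolgD257A 5.28 ± 4.41 and 3.38 ± 3.66 (SD, n = 6). All 4 groups overlapped. Exact two-sided permutation tests over 924 relabelings gave p = 0.381 for B-IRI in Polg+/+, 0.535 for B-IRI in PolgD257A, 0.323 for genotype in sham and 0.68 for genotype after B-IRI, and every one was 0.68 after adjustment over the 4 tests. The smallest p this design can give is 0.00216, and no difference was detected at this depth. Gnb2 overlaps Epo exons on the same strand.

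**Figure D3:**
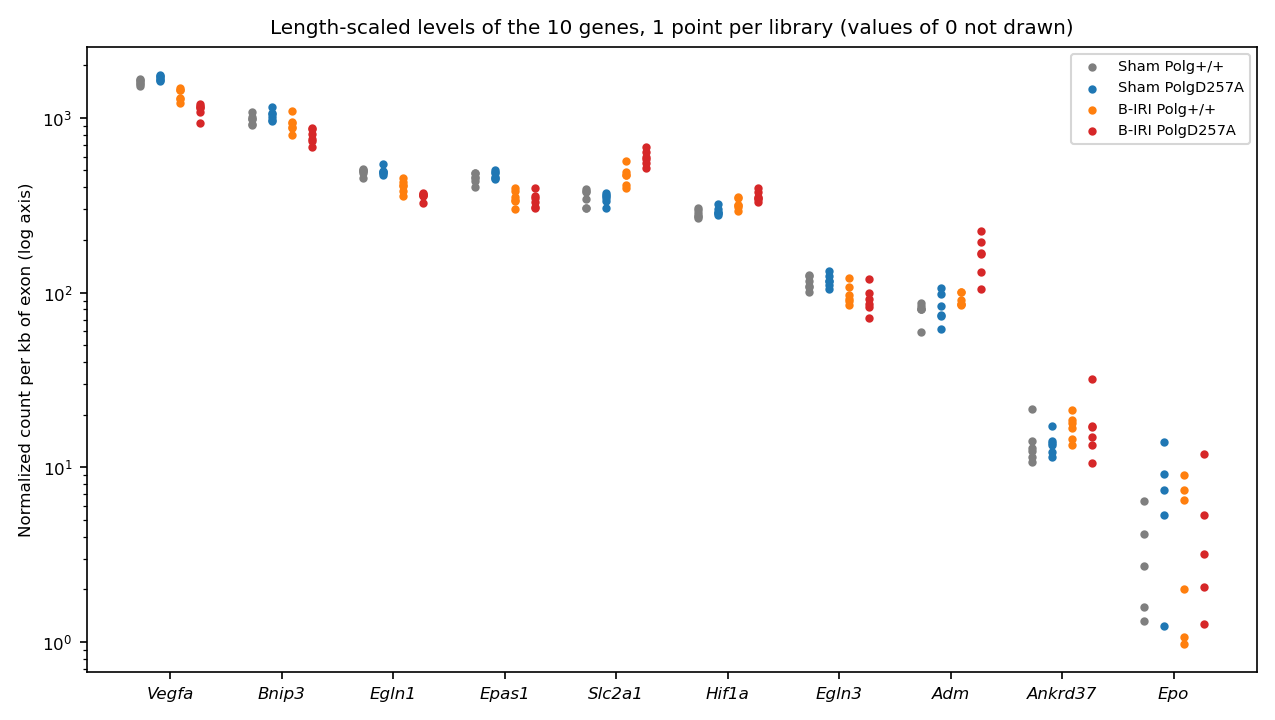
Level of each of the 10 genes per kb of exon (normalized count per kb, log axis), 1 point per library, coloured by group, with values of 0 not drawn. Vegfa and Bnip3 were the most abundant in every group and Ankrd37 and Epo the least, and Slc2a1 passed Egln1 and Epas1 after B-IRI.

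Ordered by level per kb of exon, Vegfa (1597 ± 52.9 normalized counts per kb in sham Polg+/+) stood first and Bnip3 (980.9 ± 63.8) second in all 4 groups, with no overlap between them. In sham kidneys of both genotypes Egln1 and Epas1 came next and overlapped each other, followed by Slc2a1 and Hif1a, which also overlapped. After B-IRI Slc2a1 stood next after Bnip3 in both genotypes, at 466.3 ± 60.2 in Polg+/+ and 593.1 ± 60.0 in PolgD257A. In B-IRI PolgD257A it did not overlap with the gene below it. There Hif1a (358.5 ± 23.8), Egln1 (357.1 ± 16.0) and Epas1 (341.2 ± 34.8) overlapped as neighbours in that order. Adm stood below Egln3 in the other groups and above it in B-IRI PolgD257A (164.6 ± 42.8 against 91.7 ± 16.6), where the ranges overlapped (SD, n = 6 throughout).

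The other genes of the pathway were taken as 5 lists, of which 88 of 89 genes were tested. In Polg+/+ 27 of the 88 were higher after B-IRI (30.7%) and 20 were lower (22.7%), with a median of 0.06. In PolgD257A 27 were higher (30.7%) and 22 lower (25.0%), with a median of 0.02. Between genotypes after B-IRI 21 were higher in PolgD257A (23.9%) and 13 lower (14.8%), with a median of 0.05. In sham limma called 0 of 88, with 9 at an unadjusted p under 0.05, 0 by edgeR and 1 by DESeq2. The surgery effect differed for 15 of 88, 7 toward higher (7.95%) and 8 toward lower values in PolgD257A (9.09%). The shares of all genes tested are the background for these counts and for those of each list below. After B-IRI they were 21.4% higher and 19.8% lower in Polg+/+, and 30.2% and 30.3% in PolgD257A. Between genotypes after B-IRI they were 14.3% and 15.2%, and for the difference in surgery effect 6.87% and 9.08%.

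**Figure D4:**
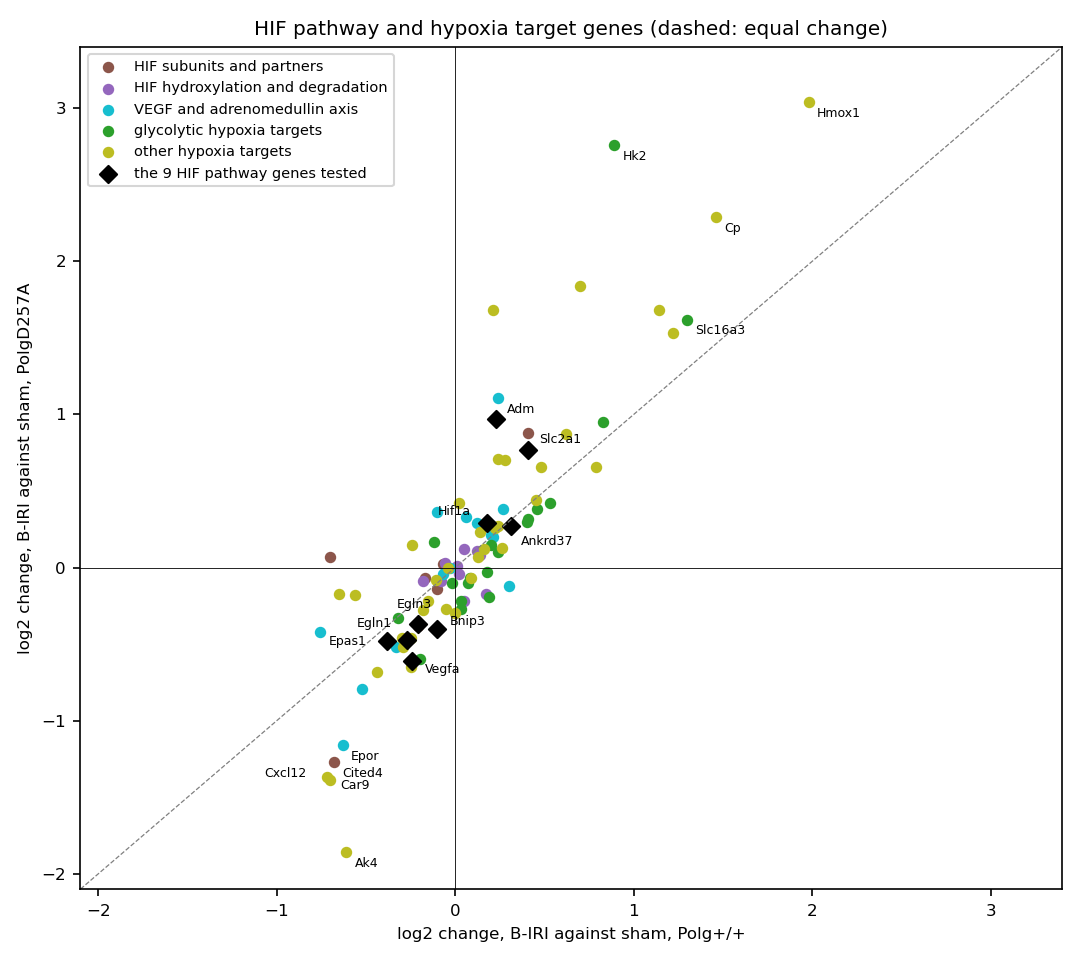
Log2 change after B-IRI in Polg+/+ (horizontal) against that in PolgD257A (vertical) for the genes tested of the 5 pathway lists (circles, coloured by list) and for the 9 named genes tested (diamonds), with a dashed line of equal change. Among the genes drawn, which leave out 1 tested gene, Hmox1 lay furthest up, at 1.98 and 3.04, and Ak4 furthest down, at -0.61 and -1.86.

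Among the 7 further subunits and partners, 1 rose (14.3%) and 3 fell (42.9%) after B-IRI in Polg+/+ (median -0.17). In PolgD257A 1 rose (14.3%) and 2 fell (28.6%), with a median of -0.07. Arnt2, a beta subunit, rose by 0.41 ± 0.06 in Polg+/+ (adjusted p = 1.2e-05) and 0.88 ± 0.06 in PolgD257A (adjusted p = 5.9e-12), and these effects differed by 0.48 ± 0.09 (adjusted p = 0.00095). Its mean went from 1136 ± 61.4 normalized counts in sham Polg+/+ to 1508 ± 116 after B-IRI, and from 1080 ± 50.2 to 2003 ± 226 in PolgD257A (SD, n = 6). Cited4, a coactivator-binding protein gene, fell by 0.68 ± 0.20 in Polg+/+ (adjusted p = 0.0075) and 1.27 ± 0.20 in PolgD257A (adjusted p = 4.2e-06). Its relative Cited2, a competitor of HIF-1 alpha for p300, fell by 0.38 ± 0.09 in PolgD257A (adjusted p = 0.00058) and was at -0.21 ± 0.09 in Polg+/+ (adjusted p = 0.065). Hif3a had few counts, and after B-IRI it was higher in PolgD257A, at 21.5 ± 5.15 against 9.89 ± 3.26 (log2 1.07 ± 0.27, adjusted p = 0.0034). Its sham means were 22.3 ± 12.4 in PolgD257A, near the level after B-IRI, and 16.6 ± 4.73 in Polg+/+. The fall after B-IRI in Polg+/+, log2 -0.70, was called in the main fit and lost in 10 of 34 alternatives. Reads of Arnt2 may include those of Gm30873 on the other strand.

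Of the 10 further hydroxylation and degradation genes, limma called 1 in Polg+/+ after B-IRI. This was Vhl, the substrate receptor for hydroxylated HIF, which was lower after B-IRI in Polg+/+ (-0.18 ± 0.06, adjusted p = 0.019), a call lost without sham Polg+/+ replicate 2 or B-IRI Polg+/+ replicate 3 (-0.14 each). The count of 1 was 0 without either of these libraries, 2 without sham Polg+/+ replicate 4, 2 with TMM scaling, 2 with library weights and 3 with only the libraries compared. In PolgD257A limma called 0 of the 10 after B-IRI, with 0 at an unadjusted p under 0.05 and 0 by edgeR and DESeq2, and their values lay between -0.22 and 0.12. That count was 1 with TMM scaling, 3 with quantile normalization and 1 without sham PolgD257A replicate 1, sham PolgD257A replicate 6 or B-IRI PolgD257A replicate 2.

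In the VEGF and adrenomedullin axis, 1 of 14 rose (7.14%) and 4 fell (28.6%) after B-IRI in Polg+/+ (median 0.01). In PolgD257A 4 rose (28.6%) and 3 fell (21.4%), with a median of 0.10. The 5 called in Polg+/+ were 3 with no filter and 3 without sham Polg+/+ replicate 2 or 5. Vegfb, a Vegfa relative, rose in Polg+/+ (0.30 ± 0.09, adjusted p = 0.0064) and was at -0.12 ± 0.09 in PolgD257A (adjusted p = 0.22), an interaction of -0.42 ± 0.12 (adjusted p = 0.018). Vegfd fell by 0.52 ± 0.11 in Polg+/+ (adjusted p = 0.00072) and 0.79 ± 0.11 in PolgD257A (adjusted p = 1.5e-06). Kdr, the main signalling receptor of VEGF-A, fell by 0.33 ± 0.13 in Polg+/+ (adjusted p = 0.04), a call lost with no filter, TMM scaling, edgeR and 7 of the single libraries left out (adjusted p up to 0.12), and by 0.52 ± 0.13 in PolgD257A (adjusted p = 0.00093). Epor, the erythropoietin receptor gene, fell by 0.63 ± 0.21 in Polg+/+ (adjusted p = 0.018), a call lost without sham Polg+/+ replicate 6 or B-IRI Polg+/+ replicate 1, and by 1.16 ± 0.21 in PolgD257A (adjusted p = 3.3e-05). The surgery effects were not shown to differ between genotypes for Kdr (adjusted p = 0.52) or Epor (adjusted p = 0.25). Pgf, the placental growth factor gene, rose there by 1.11 ± 0.29 (adjusted p = 0.0018), at 21.1 ± 6.86 normalized counts after B-IRI, and was at 0.24 ± 0.29 in Polg+/+ (adjusted p = 0.53). Between genotypes after B-IRI 6 of the 14 were higher in PolgD257A (42.9%) and 2 lower (14.3%). Among the higher ones was Flt4, the receptor of VEGF-C and VEGF-D (0.49 ± 0.13, adjusted p = 0.0042). These 8 calls were 4 with no filter and 5 with only the libraries compared. They were 2 without B-IRI Polg+/+ replicate 1, 4 without its replicate 5, 4 without B-IRI PolgD257A replicate 1, 2 or 4 and 5 without its replicate 6. Of the 12 endothelial markers 6 were also higher in that comparison and 0 lower, and their part in these values was not tested.

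Of the 19 glycolytic targets, 10 rose (52.6%) and 2 fell (10.5%) after B-IRI in Polg+/+ (median 0.19). In PolgD257A 7 rose (36.8%) and 5 fell (26.3%), with a median of 0.10. Hk2, the inducible hexokinase, was at 30.4 ± 14.1 normalized counts in sham and 63.7 ± 34.2 after B-IRI in Polg+/+, and at 22.1 ± 7.93 and 154.4 ± 49.2 in PolgD257A (SD, n = 6). It rose by 2.76 ± 0.39 in PolgD257A (adjusted p = 7.5e-07), against 0.89 ± 0.39 in Polg+/+ (adjusted p = 0.067), an interaction of 1.87 ± 0.54 (adjusted p = 0.02). Slc16a3, the lactate exporter MCT4, rose by 1.30 ± 0.24 in Polg+/+ and 1.62 ± 0.24 in PolgD257A, and Gbe1, the glycogen branching enzyme, by 0.83 ± 0.06 and 0.95 ± 0.06. Pdk1, the kinase that inhibits pyruvate dehydrogenase, was among the genes of the list that fell in both genotypes, by 0.20 ± 0.05 in Polg+/+ (adjusted p = 0.0037) and 0.60 ± 0.05 in PolgD257A (adjusted p = 2.8e-10), an interaction of -0.40 ± 0.07 (adjusted p = 0.00091). Pgk1 and Tpi1, genes of glycolytic enzymes, were called lower in PolgD257A, at -0.22 ± 0.05 and -0.27 ± 0.07. Under quantile normalization limma called both higher instead, at 0.11 and 0.16 (adjusted p = 0.031 each). Hk1, also among the 5 that fell there (-0.19), lost its call in 9 of 35 alternatives.

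Of 38 other targets tested, 15 rose (39.5%, beside 21.4% of all genes) and 10 fell (26.3%, beside 19.8%) in Polg+/+ (median 0.11). In PolgD257A 15 rose (39.5%, beside 30.2%) and 12 fell (31.6%, beside 30.3%), with a median of 0.13. Hmox1, heme oxygenase, went from 665.6 ± 122 to 2707 ± 838 normalized counts in Polg+/+ and from 747.1 ± 99.8 to 6328 ± 1701 in PolgD257A (SD, n = 6). It rose by 1.98 ± 0.18 (adjusted p = 4.3e-09) and 3.04 ± 0.18 (adjusted p = 2.7e-13), and these rises differed by 1.06 ± 0.26 (adjusted p = 0.0067). Cp, the ferroxidase ceruloplasmin, rose by 1.46 ± 0.08 and 2.29 ± 0.08. Edn1, the gene of the vasoconstrictor endothelin, had an interaction of 1.14 ± 0.23 (adjusted p = 0.0018), and Lox, the collagen cross-linking oxidase, one of 1.48 ± 0.27 (adjusted p = 0.00069). An interaction alone does not show which groups moved. After B-IRI Edn1 was higher in PolgD257A by log2 1.05. For Lox in that comparison the authors' table gives a log2 fold change of 0.83, with a standard error of 0.19. Ak4, a mitochondrial adenylate kinase, went the other way, from 12950 ± 1597 to 8470 ± 1123 in Polg+/+ and from 14460 ± 876 to 4048 ± 722 in PolgD257A. It fell by 0.61 ± 0.11 and 1.86 ± 0.11, an interaction of -1.24 ± 0.15 (adjusted p = 4.1e-05). Car9, a carbonic anhydrase often used as a hypoxia marker, fell by 0.70 ± 0.15 and 1.39 ± 0.15, and Cxcl12, a chemokine gene, by 0.72 ± 0.14 and 1.37 ± 0.14. Bnip3l, the relative of Bnip3, fell by 0.30 ± 0.04 and 0.46 ± 0.04. Genes on the other strand overlap the exons of Cp (Hps3), Edn1 (Gm47118), Lox (AC161119.1) and Car9 (Gm12454).

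Markers of several kidney cell types also changed after B-IRI, and their part in the changes above was not tested. As background for the marker counts, 21.4% of all genes tested were higher and 19.8% lower after B-IRI in Polg+/+. In PolgD257A these shares were 30.2% and 30.3%. Of 12 proximal tubule markers, 8 were lower after B-IRI in Polg+/+ and 12 in PolgD257A, and their summed count after B-IRI was 265300 to 355200 in Polg+/+ and 164100 to 238100 in PolgD257A. All 7 markers of injured tubule rose in both genotypes, with sums of 12060 to 19900 in sham libraries and of 55660 to 190400 and 192100 to 373500 in the B-IRI groups. Of 8 podocyte markers 2 rose in Polg+/+ and 4 in PolgD257A, and 0 were called lower. The other 6 and 4 were not called, and the lowest values were -0.46 and -0.36. The podocyte sums were 4928 to 7323 in sham and 5526 to 7211 after B-IRI. Of 12 endothelial markers 0 rose and 1 fell in Polg+/+, and 5 rose and 1 fell in PolgD257A, where their sum was 13180 to 15170 after B-IRI against 11690 to 13490 in sham. Of 10 fibroblast and pericyte markers, which include the cell type that makes Epo, 4 rose and 2 fell in Polg+/+, and 6 rose and 1 fell in PolgD257A. Of 10 markers of the loop of Henle and distal tubule 2 rose and 3 fell in Polg+/+, and 0 rose and 5 fell in PolgD257A. Of 10 macrophage markers 4 rose and 1 fell in Polg+/+, and 5 rose and 1 fell in PolgD257A. Their sums overlapped between surgeries, at 2522 to 3034 in sham and 2073 to 3090 after B-IRI in Polg+/+. In PolgD257A the macrophage sums were 2441 to 2933 and 2396 to 3681. The 7 neutrophil markers, most of them under the filter, summed to 15.99 to 53.91 normalized counts in sham libraries, 38.85 to 127.4 in B-IRI Polg+/+ and 83.72 to 505.0 in B-IRI PolgD257A. All 5 red blood cell markers tested were lower after B-IRI in both genotypes. None of the proximal tubule, podocyte, endothelial, red blood cell or injured tubule markers was at 0 in every library of a group.

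Genes that varied with 4 of the 10 across libraries once the group means were taken off are given as a description over 24 libraries, which share their depth and scaling, among 10808 genes. Among the genes most like Hif1a were Phf20 (Pearson r = 0.77) and Mbnl1 (0.76). Among those most like Epas1 were Kat6b (0.83) and Daam2 (0.77). Vegfa was most like Egf (0.86), a growth factor gene of the distal tubule, Atp4a (0.85) and Scnn1a (0.83), a subunit gene of the epithelial sodium channel. Egf changed by log2 -1.31 after B-IRI in Polg+/+ and by -3.45 in PolgD257A, Atp4a by -0.31 and -1.29, and Scnn1a by -0.08 and -0.63. Adm was most like Slc48a1 (0.72), Gskip (0.68) and Znhit6 (0.68).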

How the data were processed

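RNA from 24 mouse kidney samples (2 µg per library) was extracted with RNeasy kits, and the NEBNext Ultra II RNA kit served for library preparation, according to the labels' protocols. FastQC, STAR, SAMtools, featureCounts and DESeq2 and the build GRCm38.p6 are named in the submitters' processing notes, without versions. No source used here states the strand handling. The deposited signal values are gene counts that the authors divided by 1 size factor per library (0.74 to 1.315). Multiplying back gave whole reads for 100% of values (within 0.001). A second deposited table gives the authors' shrunken log2 fold changes, with their standard error, mean signal and s-value (a p-value-like measure) for selected genes. Deposited column names with Ctrl, Mut and SurgBIR were read as Polg+/+, PolgD257A and B-IRI, an inference on which every comparison rests.

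Gene symbols were matched on Ensembl identifiers without version, and coordinates and exon lengths are those of GENCODE M21 (GRCm38). Of the 55416 deposited identifiers 35 have the same version in M21, so the annotation counted was another, and exon lengths, levels per kb and overlaps may differ from it. limma 3.58.1 (trend, R 4.3.3) was fitted to log2(normalized count + 1), with pseudocount 1, over the 17430 genes that reached 10 normalized counts in 6 libraries or more, with 1 mean per group, and p-values were adjusted by Benjamini-Hochberg per comparison at 0.05. Epo was tested by exact permutation. edgeR 4.0.16 and DESeq2 1.42.0 on the recovered reads, other pseudocounts (0.5 and 5), filters, scalings, library weights, a replicate block and leaving out each library were alternatives. The pipeline was tested on simulated data. Promoter sequences are RefSeq's (GRCm38.p6).

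The 10 genes and the pathway and marker lists were chosen with earlier results of these data known. All 10 are described. From each pathway list the 4 largest called changes per comparison, and genes moving against their list, could be named. Egln2 is named as well, as a prolyl hydroxylase gene. The 3 genes most alike had the highest Pearson correlation among tested genes that averaged 100 normalized counts or more. Some genes that these rules name are not reported here.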

Additional observations from a re-analysis of the deposited data

Results flagged for a closer look

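Among the 40 sets of 6 libraries (10 genes in 4 groups), 3 held a library whose gap to its nearest neighbour exceeded Dixon's 95% critical value, and chance alone gives about 1 in 20. Egln1 was at 1942 normalized counts in sham PolgD257A replicate 3, where the others lay at 1698 to 1776. Egln1 was at 1172 in B-IRI PolgD257A replicate 1, where the others lay at 1277 to 1333. Adm was at 95.78 in sham Polg+/+ replicate 3, where the others lay at 129.6 to 140.8.

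The surgery effect differed between the genotypes by limma's interaction test for 4 of 9 genes. The difference (PolgD257A minus Polg+/+) was log2 -0.37 for Vegfa, -0.31 for Bnip3, 0.74 for Adm and 0.36 for Slc2a1.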

How the results depend on the processing

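Of 1561 recomputed values for the 45 changes of the 9 tested genes, 1495 kept their direction and their side of the threshold, 25 lost the call, 9 gained it and 32 changed sign, all of the last in changes that were not called. Each library was left out for every change, also where it was in neither group compared. There the log2 change could not move, while its standard error and p-values could, so the 1495 include values that were nearly fixed in advance. The count of genes with a differing surgery effect, 4, was 2 (Vegfa and Adm) with no filter and 2 with the replicate block, and 2 to 5 when single libraries were left out. It was 2 without B-IRI Polg+/+ replicate 1 or 5 or B-IRI PolgD257A replicate 1. For the pathway lists in sham, 0 called became 1 with only the libraries compared and 1 by DESeq2. Replicate numbers did not pair the samples (lowest same-number correlation -0.33 to -0.02 over the pairs of groups).

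Signs changed for genotype in sham in Egln1 (quantile normalization -0.0004, library weights -0.002, single libraries left out -0.01 to 0.03), Adm (left out -0.02 to 0.14), Slc2a1 (left out -0.05 to 0.02) and Ankrd37 (edgeR -0.02, DESeq2 -0.02, left out -0.06 to 0.14). After B-IRI the genotype difference changed sign in Epas1 (quantile normalization 0.006), Ankrd37 (edgeR 0.04, DESeq2 0.04, left out -0.22 to 0.09) and Epo (left out -0.61 to 0.08), and the interaction did in Ankrd37 (edgeR 0.06, DESeq2 0.06, left out -0.23 to 0.08). Quantile normalization put Pgk1 at 0.11 and Tpi1 at 0.16 for B-IRI in PolgD257A, which turned both calls from lower to higher (limma, adjusted p = 0.031 each). The causes were not tested. The replicate block also ended the interaction calls of Slc2a1 (adjusted p = 0.052) and Bnip3 (adjusted p = 0.057). Read depth limits Ankrd37, which gave no value under the filter of 50 normalized counts, and Epo.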
